A study of Mus musculus with 18 samples.

Results

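Argonaute and TNRC6 proteins carry out silencing by miRNAs. The loci described here are those whose gene symbols, split at commas, held Ago1, Ago2, Ago3, Ago4, Tnrc6a, Tnrc6b or Tnrc6c. This rule gave 7 loci of the 52179 loci with a symbol, 4 with an Argonaute gene and 3 with a TNRC6 gene, and it used no measured value.

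An Argonaute protein holds a miRNA and pairs its seed with a matching site in a target RNA. TNRC6 proteins, also called GW182 proteins, bind Argonaute and bring in the PAN2-PAN3 and CCR4-NOT deadenylases, which shorten the poly(A) tail before the cap is removed and the RNA is degraded. Of the Argonautes, Ago2 is the one known as an endonuclease that cuts fully paired targets. The proteins act mainly in the cytoplasm, where they gather in P-bodies, and both families are also found in the nucleus.

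The samples were poly(A)-selected RNA-seq libraries from a pulldown with biotinylated miRNA mimics on streptavidin beads, a design that asks which RNAs a miRNA is bound to in the nucleus and in the whole cell. All 18 samples came from N2A (Neuro2A), 1 wild type (WT) mouse neuroblastoma line, so the values describe a tumour line and not neurons of a brain. The 6 groups of 3 were nuclear control, nuclear Scr, nuclear miR-92b, whole cell control, whole cell Scr and whole cell miR-92b. Control cells were untransfected, Scr cells received a biotinylated scrambled sequence, and miR-92b cells received biotinylated miR-92b, each mimic at 25 nM. Nuclear samples came from nuclei purified through layers of sucrose, and whole cell samples from unfractionated lysate. The sequencing text of the labels gives no batch or date. The labels do not say whether the 3 samples of a group were separate cultures. Separate experiments are stated for the RT-qPCR of the pulldown but not for these libraries, so the p-values measure the spread between these samples, which may be technical.

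Depth and composition differed between samples. The reads that fell on named loci numbered 3752991 in the shallowest sample and 22920038 in the deepest. The summed normalized count of marker genes of the sympathetic lineage of neuroblastoma was 4708 to 6188 per sample. The summed counts of markers of astrocytes, fibroblasts, immune cells and endothelium were at most 75.7, 90.5, 8.07 and 77.4. The summed count of 8 RNAs known to stay in the nucleus was 117823 to 150370 in nuclear and 32845 to 85276 in whole cell samples, and that of 10 abundant cytoplasmic mRNAs was 18773 to 34682 and 62630 to 218382. Whole cell miR-92b 3 stood apart from the other whole cell samples, with the lowest nuclear sum (32845) and the highest cytoplasmic sum (218382). At a common depth it had reads on 13823 loci, the fewest of all samples, while nuclear Scr 2, nuclear Scr 3 and nuclear control 3 had 14729, 14958 and 15732 against at least 19785 in the other nuclear samples.

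The members lay on 4 chromosomes of GRCm38. Ago3 (chr4:126331704-126429556), Ago1 (chr4:126433898-126468623) and Ago4 (chr4:126489541-126533472) are neighbours on the minus strand, with 5455 bases between the annotated genes Ago3 and Ago1 and 20957 between Ago1 and Ago4. Tnrc6a lay at chr7:123031374-123195296, Tnrc6b at chr15:80711277-80941117 and Tnrc6c at chr11:117654289-117763439, all on the plus strand. Ago2 was not measured alone: its locus (chr15:73090392-73423191, minus strand) also held Ptk2, the focal adhesion kinase gene, which lies 20166 bases upstream on the same minus strand. Reads of the joined locus cannot be split between Ago2 and Ptk2. Chrac1 on the opposite strand overlaps annotated Ago2 by 1711 bases and begins at the first base of the locus. Of 10 other loci given the same region, 6 had no symbol, and Chrac1 had a locus of its own. The libraries were made with a directional kit, and the sources do not state whether strand was used in counting. The Tnrc6b locus also held Mir5113, the gene of a miRNA in the last exon of Tnrc6b. Tnrc6a was not measured alone either: its locus held 2 further clone-named transcripts and began at 123031374, upstream of annotated Tnrc6a at 123123885. Reads of that locus cannot be split, and all values given for Tnrc6a are those of the joined locus.

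A miRNA held by Argonaute pairs with targets through its seed, so the seed of miR-92b was looked for in the members' sequences. The labels name miR-92b without its arm, and the 3p arm, which carries the seed of the miR-25 family, is shown from RefSeq (GRCm38.p6, chr3:89227126-89227147, minus strand) with the seed, bases 2 to 8, in capitals. Of the RefSeq mature miRNAs, 6 share this seed, and 2 relatives are shown for comparison. miR-5113 is shown because its locus is the Tnrc6b locus.
miR-92b-3p: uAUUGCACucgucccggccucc
miR-92a-3p: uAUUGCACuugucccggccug
miR-25-3p: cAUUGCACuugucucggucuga
miR-5113: aCAGAGGAggagagagauccugu

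The longest annotated 3′ UTR of each member (GENCODE M21) was searched on the transcript strand for GTGCAATA (a match of 8 bases), GTGCAAT and TGCAATA (matches of 7 bases), each place counted once under its longest match. Ago3 held 2 matches of 8 bases. Ago2, Tnrc6b and Tnrc6c each held 1 match of 7 bases ending in A, and Ago1, Ago4 and Tnrc6a held none. The matches are shown in capitals within their flanks, 5′ to 3′ on the transcript strand (GRCm38).
Ago3, chr4:126344239-126344268: gctctcttttaGTGCAATAagcagttttac
Ago3, chr4:126333833-126333862: caccgtgtgcaGTGCAATAgctaacactga
Ago2, chr15:73096089-73096117: tgcactattttTGCAATAaattcatggga
Tnrc6b, chr15:80929549-80929577: ttttttcaactTGCAATAaatacattttt
Tnrc6c, chr11:117762016-117762044: cacttcccatcTGCAATAtaaagttaaag

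The 3′ UTRs searched differed in length. That of Ago3 was 12742 nt long, and its matches began 1217 and 11623 nt after the stop codon. The match of Ago2 began at 10802 of 11064 nt, that of Tnrc6b at 84 of 11609 nt and that of Tnrc6c at 1176 of 2588 nt. Of 20996 genes with an annotated 3′ UTR, 12.7% held a match and 2.28% a match of 8 bases. Among the 46 genes with a 3′ UTR of about the length of that of Ago3 (0.8 to 1.25 times), 65.2% held a match. Of the 46, 6 held at least 1 match of 8 bases, Ago3 included. Of the 78 genes with a 3′ UTR about as long as that of Ago2, 59.0% held a match, as did 63.8% of the 69 of about the length of that of Tnrc6b and 22.8% of the 2730 of about the length of that of Tnrc6c. Each of these sets includes the member itself. A match is a run of letters, and binding was not measured at any of these places.

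**Figure D1:**
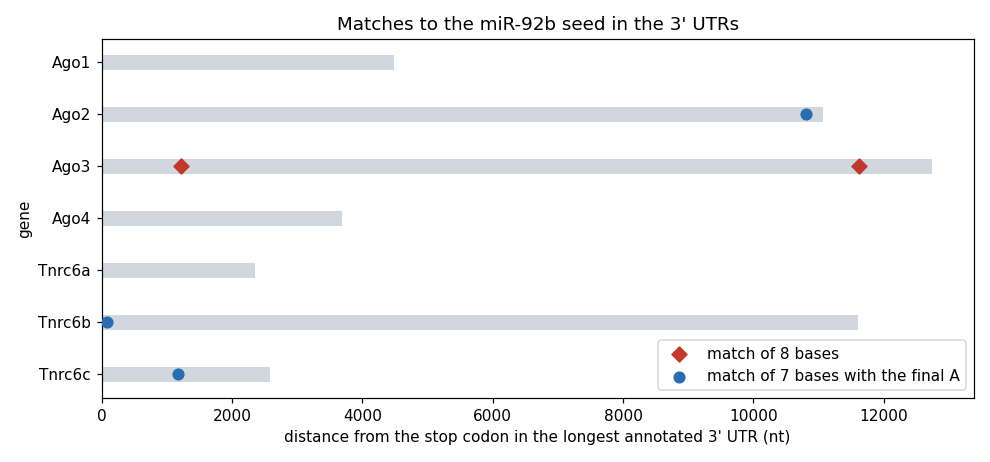
Places of the matches to the miR-92b seed in the longest annotated 3′ UTR of each member. The horizontal axis is the distance from the stop codon in nucleotides, grey bars are the 3′ UTRs, red diamonds are matches of 8 bases and blue circles are matches of 7 bases with the final A. Only Ago3 of the 7 genes had diamonds, and Ago1, Ago4 and Tnrc6a had no symbol.

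Levels of the members were compared with each other on the FPKM scale, which is per transcript length. Tnrc6a (52.3 ± 11.4, SD, n = 18) and the Ago2 locus (44.3 ± 13.2) had the highest mean FPKM. Tnrc6c followed with 24.6 ± 7.61, then Ago1 with 11.3 ± 6.98, Tnrc6b with 10.8 ± 1.48, Ago3 with 7.65 ± 3.81 and Ago4 with 0.913 ± 0.977. Among the 15579 loci tested, Tnrc6a stood at percentile 95.6 of mean FPKM, the Ago2 locus at 94.2, Ago3 at 51.9 and Ago4 at 4.54. Tnrc6a and the Ago2 locus were thus near the top of the range, and Ago4 near its lower end.

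The order of the 2 highest loci differed between compartments. In nuclear samples the FPKM of Tnrc6a (median 54.3, 49.3 to 80.9) lay above that of the Ago2 locus (median 33.1, 28.8 to 34.2) in 9 of 9 samples, with no overlap. In whole cell samples the Ago2 locus (median 55.8, 48.5 to 67.9) was above Tnrc6a (median 41.7, 37.3 to 61.9) in 7 of 9 samples, and the ranges overlapped. Tnrc6c was above Tnrc6b in 9 of 9 samples of each compartment, with no overlap. Tnrc6b and Ago1, and Ago1 and Ago3, had overlapping ranges in both compartments, with the first of each pair higher in 7 and 5 of 9 nuclear samples and in 5 and 8 of 9 whole cell samples. In nuclear samples Ago3 lay above Ago4 with no overlap, and in whole cell samples it was higher in 9 of 9 samples although the ranges met.

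**Figure D2:**
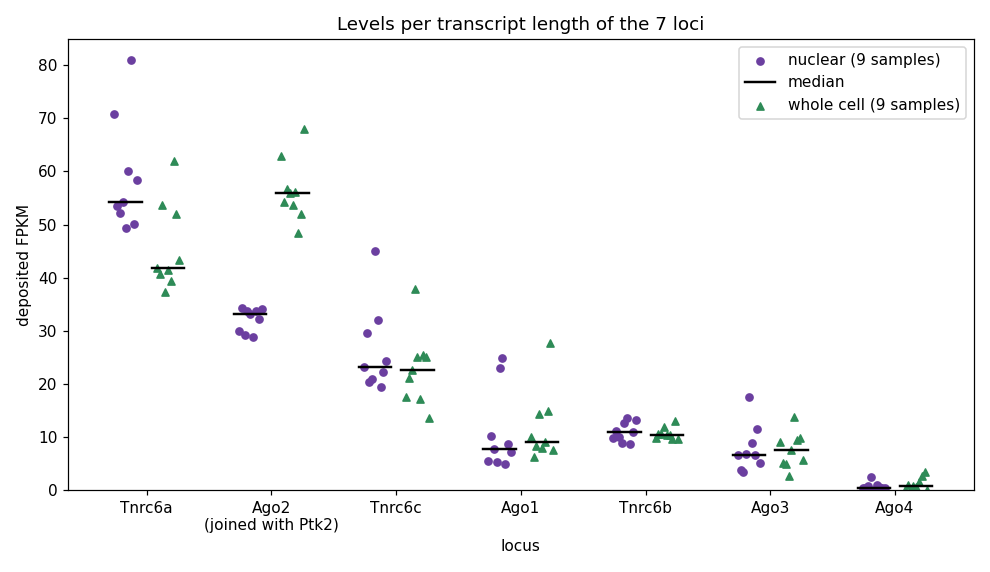
Deposited FPKM of the 7 loci in every sample, in order of their mean. Circles are the 9 nuclear samples, triangles the 9 whole cell samples and black lines the medians. The Ago2 locus lay between 28.8 and 34.2 in nuclear and between 48.5 and 67.9 in whole cell samples, while Ago4 stayed at or below 3.41.

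The FPKM depends on which transcripts were taken to be present. The transcript length implied by a locus is its normalized count divided by its FPKM, scaled in each sample on loci with 1 annotated transcript. For Tnrc6b it was 19175 to 20363 nt, a narrow range above the 17332 nt of its longest annotated coding transcript. For Tnrc6a it was 3506 to 7647 nt, for Tnrc6c 4828 to 10026 nt, and for Ago4 1347 to 7377 nt in the 15 samples with reads. For Ago1 it was 2720 to 9842 nt, for Ago3 3477 to 14409 nt, and for the Ago2 locus 11484 to 16418 nt, beside 13800 nt of the annotated coding transcript of Ago2. The implied length of Ago3 had a median of 8444 nt in nuclear samples (4932 to 14409 nt). In whole cell samples its median was 5962 nt (3477 to 12528 nt), so the ranges overlapped. The FPKM and the normalized count of Ago3 can differ in how they compare the compartments, and what length contributes to this was not tested. Samples were compared on normalized counts, in which the reads of a locus are divided by a size factor common to all loci of the sample. Such counts are relative to the other poly(A) RNA recovered in the pulldown of a sample and are not amounts of RNA per nucleus or per cell. In bulk samples such as these, fewer cells of a type and less RNA per cell cannot be told apart.

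Ago1 encodes an Argonaute without the cutting activity known for Ago2. Its normalized counts in samples 1, 2 and 3 were 416, 519 and 408 in nuclear control, 315, 469.6 and 525 in nuclear Scr, and 362, 533 and 467 in nuclear miR-92b. They were 541, 431 and 479 in whole cell control, 589, 442 and 417 in whole cell Scr, and 604, 725 and 499 in whole cell miR-92b. The highest values were those of whole cell miR-92b 2 and 1, the lowest that of nuclear Scr 1, and the compartments overlapped.

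The Ago2 locus had the most reads of the 7 loci. Its normalized counts in samples 1, 2 and 3 were 3173, 3251 and 3289 in nuclear control, 3701, 3385 and 3549 in nuclear Scr, and 3532, 3420.4 and 3477 in nuclear miR-92b. They were 5372, 5115 and 5420.1 in whole cell control, 5224, 5144 and 4969.7 in whole cell Scr, and 4566, 4945 and 6043 in whole cell miR-92b. All 9 nuclear samples were below all 9 whole cell samples, which was so for 4.40% of the loci tested, while 2.91% had all nuclear samples above all whole cell samples. The highest value was that of whole cell miR-92b 3.

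Ago3 encodes a further Argonaute and holds both matches of 8 bases shown above. Its normalized counts in samples 1, 2 and 3 were 427, 406 and 280.0 in nuclear control, 486, 811 and 421 in nuclear Scr, and 422, 426 and 479.7 in nuclear miR-92b. They were 318, 369 and 313 in whole cell control, 239, 239 and 343 in whole cell Scr, and 413, 409.8 and 249.8 in whole cell miR-92b. Nuclear Scr 2 was far above every other sample. Of the 9 nuclear samples, 7 exceeded all whole cell samples, and nuclear control 2 and 3 fell within the whole cell range.

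Ago4 encodes the fourth Argonaute and was near the limit of detection. It had 0 reads in nuclear Scr 2, whole cell control 1 and whole cell miR-92b 3, which allows up to 3 reads in each, or normalized counts of 3.45, 3.53 and 1.91 (counting error only). In the other 15 samples it had 13 to 62 reads. Its normalized counts were 18.8 to 45.9 in nuclear control, 0 to 50.4 in nuclear Scr and 16.7 to 24.6 in nuclear miR-92b, and 0 to 11.2, 14.1 to 42.1 and 0 to 34.3 in whole cell control, Scr and miR-92b. Its fitted fold changes rest on the samples at 0 and on the added pseudocount of 1, and none is read as a size here.

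Tnrc6a encodes GW182, the protein that gave the family its name. The normalized counts of its joined locus in samples 1, 2 and 3 were 2763, 2553 and 2497 in nuclear control, 2686, 2293 and 2671 in nuclear Scr, and 2737, 2472 and 2539 in nuclear miR-92b. They were 1938, 1848 and 1660 in whole cell control, 2094, 2242 and 2165 in whole cell Scr, and 2457, 2659 and 1127 in whole cell miR-92b. Nuclear control and Scr samples were all above the whole cell samples of their treatment. Within miR-92b the compartments overlapped, with sample 2 of the whole cell group among the highest values and sample 3 the lowest of all 18.

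Tnrc6b encodes another TNRC6 protein, and its locus holds miR-5113. Its normalized counts in samples 1, 2 and 3 were 1516, 1678 and 1511 in nuclear control, 1338, 1882 and 2057 in nuclear Scr, and 1292, 1673 and 2024 in nuclear miR-92b. They were 1405, 1561 and 1587 in whole cell control, 1689, 1516 and 1506 in whole cell Scr, and 1414, 1868 and 1451 in whole cell miR-92b. Its coefficient of variation over the 18 samples, 13.9%, was the lowest of the 7 loci, and the compartments overlapped in every treatment.

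Tnrc6c encodes the third TNRC6 protein. Its normalized counts in samples 1, 2 and 3 were 1493, 1819 and 1577 in nuclear control, 1338, 1649 and 1663 in nuclear Scr, and 1300.3, 1502 and 1557 in nuclear miR-92b. They were 1194, 1148 and 1212 in whole cell control, 1346, 1295 and 1139.8 in whole cell Scr, and 1315, 1776 and 851 in whole cell miR-92b. In control the nuclear samples were all above the whole cell samples, and in Scr and miR-92b the compartments overlapped. The lowest value of all was that of whole cell miR-92b 3, as for Tnrc6a.

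**Figure D3:**
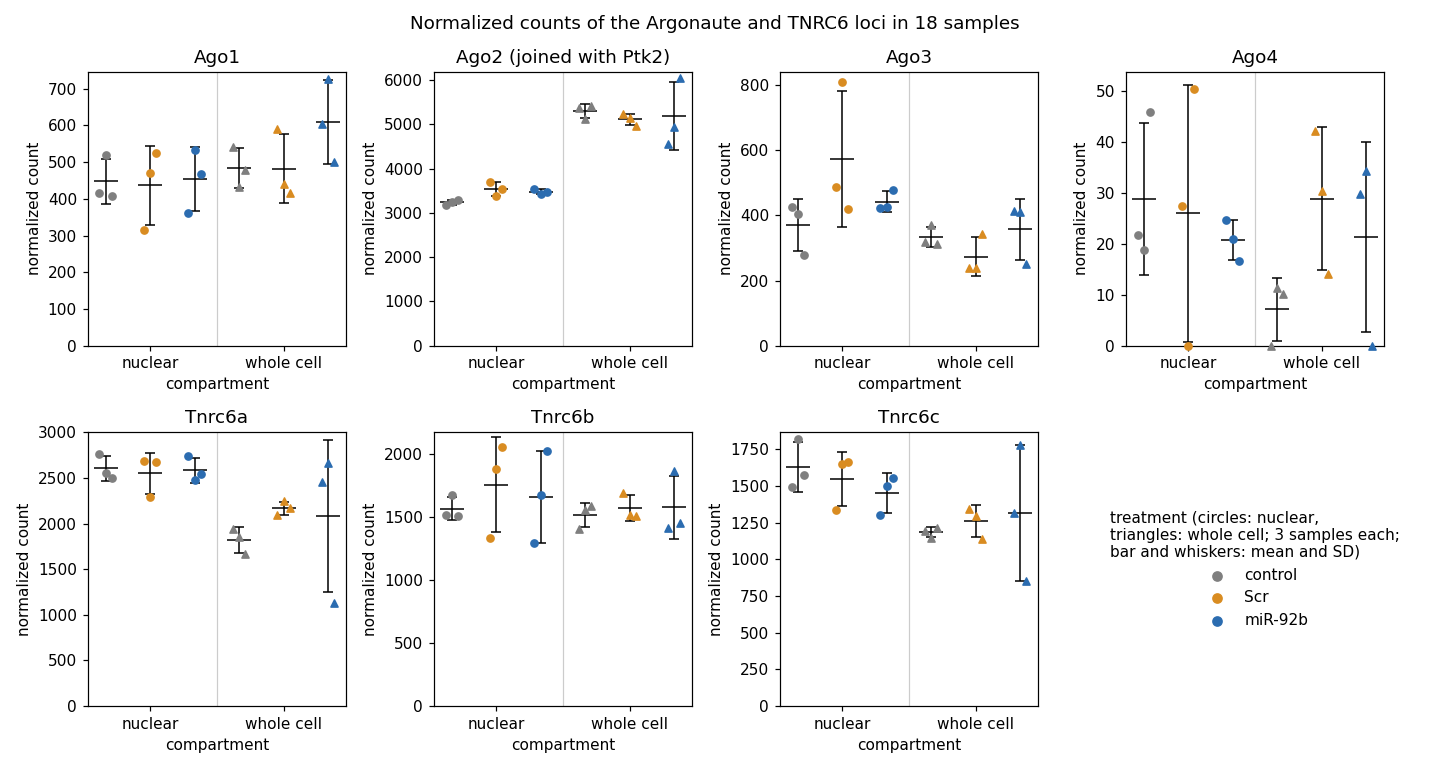
Normalized counts of the 7 loci in every sample, 1 panel per locus with a vertical axis from 0. Circles are nuclear and triangles whole cell samples, colours mark control, Scr and miR-92b, and the bar and whiskers are the mean and SD of 3 samples. The Ago2 locus separated the compartments, whole cell miR-92b 3 was the lowest triangle for Tnrc6a (1127) and Tnrc6c (851), and nuclear Scr 2 was the highest circle for Ago3 (811).

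The first comparison was nuclear against whole cell, averaged over the 3 treatments. The Ago2 locus was lower in nuclear samples by 0.60 on the log2 scale (SE 0.09), a normalized count 1.52-fold higher in whole cell samples. Ago3 was higher in nuclear samples, with a log2 fold change of 0.50 (SE 0.16), as were Tnrc6a (0.39, SE 0.13) and Tnrc6c (0.32, SE 0.12). The adjusted p-values of limma were 9.8e-06 for the Ago2 locus, 0.019 for Ago3, 0.022 for Tnrc6a and 0.041 for Tnrc6c. Ago1 (-0.23, SE 0.14, adjusted p = 0.20) and Tnrc6b (0.08, SE 0.11, adjusted p = 0.58) did not pass the threshold of 0.05, nor did Ago4 (adjusted p = 0.55).

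Thus 4 of 7 loci passed, 3 higher and 1 lower in nuclear samples, where 31.0% of all loci tested passed, 15.3% higher and 15.8% lower. When only loci with a mean count of at least 50 were tested, which leaves out Ago4 of the members, 42.9% of loci passed. The median log2 fold change was 0.32 over the 7 loci, in which Ago4 takes a rank although its value is not read as a size. It was 0.14 over all loci tested and 0.02 over those with a mean of at least 50. The same number of members passed with edgeR's quasi-likelihood test and with DESeq2 on the recovered reads, where 28.2% and 32.7% of loci passed. They were the same 4 loci. When FPKM was tested instead, the Ago2 locus and Tnrc6a passed, beside 25.1% of loci, and Ago3 had a log2 fold change of 0.01 (adjusted p = 0.98). The call of Tnrc6c was near the threshold: it was lost with no filter on low values (adjusted p = 0.077) and when any of 12 of the 18 samples was left out, and kept (adjusted p 0.0049 to 0.046) only without nuclear control 1, nuclear Scr 1, nuclear miR-92b 1, whole cell Scr 1 or whole cell miR-92b 1 or 2. Without nuclear control 3, nuclear Scr 2 and 3 and whole cell miR-92b 3, left out together after the data were seen, 4 loci passed, 2 in each direction. Of these, Ago1 (-0.40, adjusted p = 0.038) had come in and Tnrc6c (0.16, adjusted p = 0.24) had gone out.

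Compartment lists give the scale of this difference. Of the 10 cytoplasmic mRNAs, 9 were lower in nuclear samples, with a median log2 fold change of -2.82. Those with the highest counts were Eef1a1 (-3.53, SE 0.24), Eef2 (-2.90, SE 0.20), Rplp0 (-3.67, SE 0.27) and Tubb5 (-2.75, SE 0.20). The exception, named after its value was seen, was Pkm (0.11, SE 0.11, adjusted p = 0.45). Of 5 nuclear RNAs tested, 3 were higher, namely Malat1 (1.08, SE 0.16), Neat1 (1.06, SE 0.14) and Kcnq1ot1 (0.98, SE 0.14). Those of the members other than Ago4, from -0.60 to 0.50, lay between the medians of the cytoplasmic (-2.82) and the nuclear (1.06) list. In whole cell miR-92b 3 the high Ago2 value and the low Tnrc6a and Tnrc6c values stood beside the highest cytoplasmic and lowest nuclear sums. What that composition contributes to the values was not tested.

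Within each treatment the same contrast rests on 3 against 3 samples. In control the Ago2 locus was lower in nuclear samples (log2 fold change -0.71, SE 0.15, adjusted p = 0.0026), the 1 member of 7 past the threshold, where 9.85% of all loci passed, 2.94% higher and 6.91% lower. Those loci were 458 higher and 1077 lower, and 773 higher and 891 lower once samples were rescaled to the same median, which moved the median log2 fold change of all loci from 0.06 to 0.18. The Ago2 locus was still lower after rescaling (-0.59, adjusted p = 0.013). Tnrc6a (0.52, SE 0.22, adjusted p = 0.14) and Tnrc6c (0.46, SE 0.20, adjusted p = 0.17) did not pass in control. Both passed without whole cell miR-92b 3, a sample outside this contrast that shares in the estimate of the spread, with adjusted p-values of 0.0036 and 0.037.

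In Scr, 2 of 7 members passed, where 5.17% of all loci did, 1.46% higher and 3.70% lower in nuclear samples. Ago3 was higher in nuclear samples (log2 fold change 1.02, SE 0.27, adjusted p = 0.031) and the Ago2 locus was lower (-0.53, SE 0.15, adjusted p = 0.039). Both calls were near the threshold. Ago3 no longer passed without nuclear Scr 2 (0.74, adjusted p = 0.15), whole cell Scr 1 (0.94, adjusted p = 0.099) or whole cell Scr 2 (0.94, adjusted p = 0.087). The Ago2 locus kept its call only without nuclear control 3, nuclear Scr 1 or a whole cell miR-92b sample, and had an adjusted p of 0.051 to 0.11 when any of the other 13 samples was left out. Its log2 fold change stayed between -0.56 and -0.50 over the 18 omissions. In miR-92b the Ago2 locus was lower (-0.57, SE 0.15, adjusted p = 0.013), 1 of 7 members beside 13.3% of all loci, 6.66% higher and 6.63% lower. Without nuclear miR-92b 2 or 3 its adjusted p was 0.058 or 0.051, and without whole cell miR-92b 2 Tnrc6a passed as well (0.63, adjusted p = 0.0499). Ago3 had 0.34 (SE 0.27, adjusted p = 0.44) in miR-92b, with no overlap between the 3 nuclear and 3 whole cell samples.

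Samples of 3 against 3 did not overlap for 4 members in control (38.1% of all loci), for 3 in Scr (22.3%) and for 2 in miR-92b (36.2%). Whether the compartment difference itself differed between treatments was tested in the same model, as a comparison added after the data were seen. For Ago3 the nuclear over whole cell value was higher in Scr than in control by 0.89 on the log2 scale (SE 0.39), with an adjusted p of 0.89. For the Ago2 locus it differed by 0.18 (SE 0.21, adjusted p = 0.92). None of the 7 members passed with limma, edgeR or DESeq2 in this test or in that of miR-92b against control. For Scr against control 1 member, Ago3, had an unadjusted limma p below 0.05, and for miR-92b against control 0 had one. Of all loci, limma and edgeR called 0% in either test, and DESeq2 called 8 for Scr and 3 for miR-92b.

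**Figure D4:**
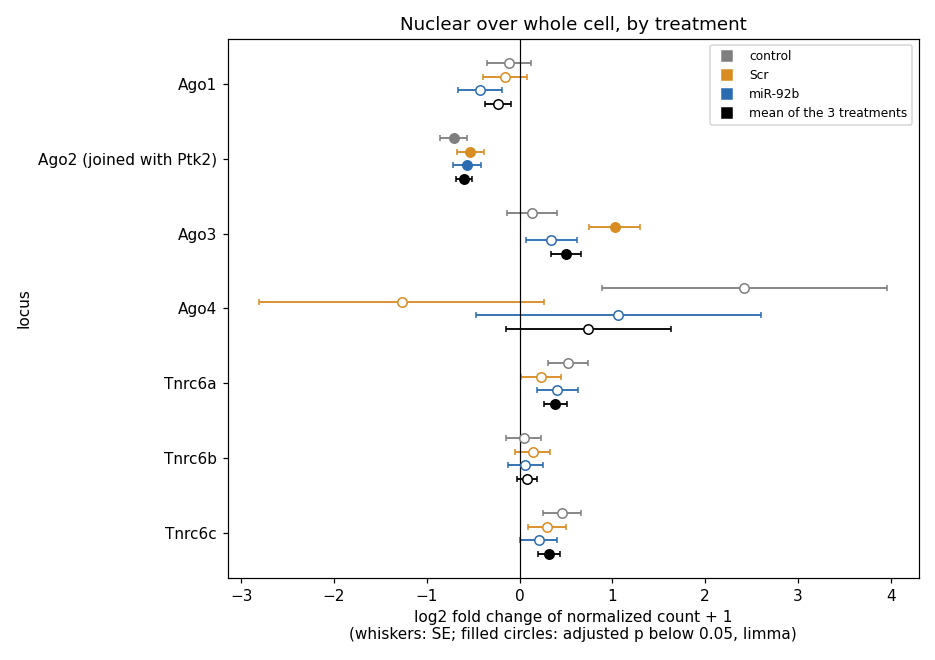
Nuclear over whole cell log2 fold change of each locus in control, Scr and miR-92b and averaged over these 3 treatments. Whiskers are standard errors and filled circles have an adjusted limma p below 0.05. The Ago2 locus lay left of 0 in each treatment (-0.71, -0.53 and -0.57), Ago3 was filled in Scr (1.02) and in the mean (0.50), and the whiskers of Ago4 were the widest.

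The second comparison, the purpose of the pulldown, was miR-92b against Scr. None of the 7 loci passed the test in nuclear or in whole cell samples. In nuclear samples the log2 fold changes were 0.07 for Ago1 (SE 0.24), -0.03 for the Ago2 locus (SE 0.15), -0.32 for Ago3 (SE 0.27), 0.02 for Tnrc6a (SE 0.22), -0.08 for Tnrc6b (SE 0.19) and -0.09 for Tnrc6c (SE 0.20). The limma adjusted p-values were 0.999964 for each, 0 of 7 had an unadjusted p below 0.05, and 0% of all loci passed, with 687 at an unadjusted p below 0.05. edgeR and DESeq2 on the recovered reads also called 0 of the 7, and 0 and 1 of all loci.

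In whole cell samples the log2 fold changes were 0.34 for Ago1 (SE 0.24), 0.01 for the Ago2 locus (SE 0.15), 0.37 for Ago3 (SE 0.27) and -0.15 for Tnrc6a (SE 0.22). Those of Tnrc6b and Tnrc6c were within 0.01 of 0 (SE 0.19 and 0.20). The lowest adjusted limma p was 0.67, again 0 of 7 had an unadjusted p below 0.05, and 0.00642% of all loci passed. edgeR and DESeq2 called 0 of the 7, and 1 and 176 of all loci. Without whole cell miR-92b 3 the values of 4 members changed sign, to 0.24 for Tnrc6a, -0.11 for the Ago2 locus, 0.05 for Tnrc6b and 0.27 for Ago4, and that of Ago3 was 0.61 (adjusted p = 0.59).

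Members that hold a seed match had no call, and neither had those that hold none. Of all loci, limma called 0 in nuclear and 1 in whole cell samples, so these calls cannot tell members apart by seed match. Ago3, with 2 matches of 8 bases, had -0.32 in nuclear and 0.37 in whole cell samples, a difference between compartments of -0.68 (SE 0.39, adjusted p = 0.70). No sample set of 3 was separate from the other for any member, where 10.1% of all loci were separate between nuclear miR-92b and Scr and 8.92% between the whole cell groups. In the test of the difference between the compartments 0 of 7 members passed with limma, edgeR or DESeq2, 0 had an unadjusted limma p below 0.05, and 0.00642% of all loci passed with limma. Of all loci, edgeR called 1 and DESeq2 40 in this test. With a standard error of 0.15 for the Ago2 locus and of 0.19 to 0.27 for Ago1, Ago3 and the TNRC6 loci, small differences were not detectable with 3 samples per group.

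**Figure D5:**
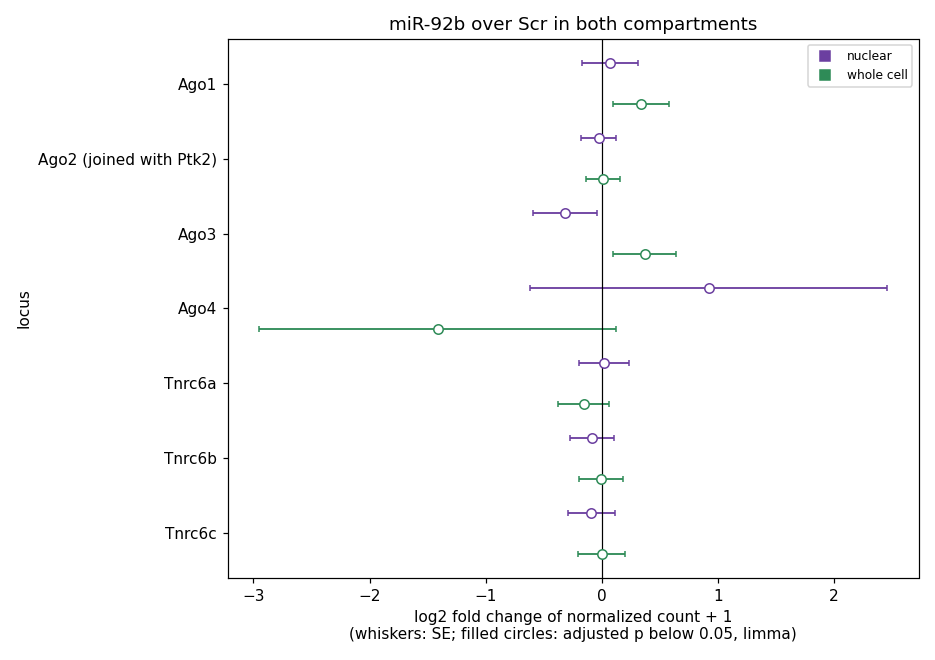
miR-92b over Scr log2 fold change of each locus in nuclear and in whole cell samples. Whiskers are standard errors, and open circles have an adjusted limma p of 0.05 or more. All 14 circles were open, and the Ago2 locus lay at -0.03 and 0.01.

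Against untransfected control, Scr and miR-92b samples were compared in each compartment, and these comparisons share their control samples. The limma test called 0 of the 7 loci in each of the 4 comparisons, as did edgeR and DESeq2. Of all loci, limma called 0% for nuclear Scr, whole cell Scr and nuclear miR-92b (916, 793 and 50 at an unadjusted p below 0.05), and 0.00642% for whole cell miR-92b. DESeq2 called 37 of all loci for whole cell Scr, 21 for whole cell miR-92b and 0 for both nuclear comparisons. Ago3 in nuclear Scr over nuclear control (0.59, SE 0.27, adjusted p = 0.84) was the 1 value with an unadjusted p below 0.05, and nuclear Scr 2 was its highest sample. For the Ago2 locus the values were 0.13 and -0.05 for Scr and 0.10 and -0.04 for miR-92b, nuclear first, each with SE 0.15.

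The pattern of the members across the 18 samples is given as Pearson's r of log2(normalized count + 1), a description in which the points share libraries and compartment. Tnrc6a and Tnrc6c were alike (r = 0.81), and the Ago2 locus ran opposite to both (r = -0.75 and -0.72). Of all loci tested, the Ago2 locus was most like Prkaca, a catalytic subunit of protein kinase A (r = 0.98), and Pabpc1, the cytoplasmic poly(A) binding protein with which TNRC6 proteins interact (r = 0.98). Tnrc6a was most like Rbm5, a splicing factor (r = 0.95), and Gm42549 (r = 0.95). The closest loci were Ube2k (r = 0.79) and Gm8597 (r = 0.72) for Ago1, Gm37180 and Gm28376 (both r = 0.86) for Ago3, and 1700006E09Rik (r = 0.93) and Spsb2 (r = 0.92) for Ago4. They were Ppargc1b (r = 0.81) and Gm29562 (r = 0.75) for Tnrc6b, and Gm25808 (r = 0.93) and Gm7580 (r = 0.92) for Tnrc6c. The r values of Ago4 depend on its samples at 0 reads and on the pseudocount, and are not read further here.

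Other genes of the pathway were counted in the mean nuclear over whole cell contrast, beside the 15.3% of all loci that were higher and the 15.8% that were lower. These shares were larger among the 10571 loci with a mean count of at least 50, of which 2151 were higher and 2384 lower. Argonaute needs chaperones of the HSP90 and HSP70 systems to take up a miRNA duplex. Of 12 chaperone genes 10 were lower in nuclear samples and 0 higher, with a median log2 fold change of -0.98. Hspa8 (-2.91, SE 0.21, in a locus shared with 3 snoRNAs of its introns), Hsp90ab1 (-2.69, SE 0.16), Ptges3, the co-chaperone p23 (-1.56, SE 0.15), and Hsp90aa1 (-0.95, SE 0.18) had the highest counts of the 10. Of the 7 genes of miRNA processing, 2 were higher and 2 lower. Dgcr8, the RNA-binding partner of Drosha in the microprocessor (0.96, SE 0.18), and Tarbp2, a partner of Dicer (0.44, SE 0.16), were higher, while Drosha (-0.64, SE 0.16) and Ran (-1.18, SE 0.13), the GTPase of pre-miRNA export, were lower. The locus of Dgcr8 also held Mir1306 and Gm24572, and that of Drosha a further clone-named gene.

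Downstream of TNRC6, 2 of 13 deadenylase genes were higher and 1 was lower, with a median of -0.05. These were Cnot4 (0.77, SE 0.15), Pan2, the catalytic subunit of PAN2-PAN3 (0.40, SE 0.13), and Cnot9 (-0.84, SE 0.15), the CCR4-NOT subunit that binds tryptophans of TNRC6. Of 21 decapping and P-body loci tested of 22 genes, 8 were lower and 2 higher, with a median of -0.35. Pabpc1 (-2.10, SE 0.13), the helicase gene Ddx6 (-0.94, SE 0.16) and Lsm14a (-0.65, SE 0.14) were lower, and Fxr1 (0.46, SE 0.10), an RNA-binding protein related to FMRP, was higher.

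Of 5 genes for import and export receptors 3 were lower, namely Kpnb1, importin beta (-0.78, SE 0.12), Kpna2 (-0.64, SE 0.15) and the exportin gene Xpo1 (-0.28, SE 0.10), and 0 were higher. Of 15 loci tested of 17 genes for turnover of Argonaute and miRNAs, 5 were lower and 2 higher. P4ha1 (0.41, SE 0.12) and Lin28b (0.77, SE 0.16) were higher, and P4hb (-1.38, SE 0.15) and Lin28a (-1.61, SE 0.22) were lower. P4ha1 and P4hb encode the subunits of a prolyl hydroxylase that modifies Ago2, and Lin28a and Lin28b block processing of let-7. The adjusted limma p of every gene given as higher or lower in these lists was at most 0.0412, the value of Tarbp2. The 3 PIWI genes, which encode the germline relatives of Argonaute, had no locus that reached the filter. In miR-92b over Scr 0 loci of all these lists passed with limma in either compartment.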

How the data were processed

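The 18 N2A pulldown libraries (6 groups of 3) were grouped by their titles. Members and gene lists were chosen with earlier results of these data known. Per the labels, the authors used bcl2fastq 2.17, Trimmomatic 0.30, TopHat2 on GRCm38 (mm10) and Cufflinks. Which TopHat2, Cufflinks and annotation releases were used is not given in the sources used. The deposited normalized counts are a signal: each is a number of reads over the size factor of its sample. The FPKM values deposited beside them are per transcript length and mapped fragments. The authors' comparison tables hold group FPKM, log2 fold changes, p-values and q-values, and were not used.

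Dividing by the step of each sample gave whole reads for 635205 of 635205 values above 0 (100% within 0.02 reads). On these reads edgeR called 4392 of 15579 loci in the mean nuclear over whole cell contrast. Loci without a symbol held 4.51% to 15.3% of reads and were left out. The main test was limma 3.58.1, with the variance following the mean, run on log2(normalized count + 1), which understates changes of loci with few reads. It covered the 15579 loci that have a symbol and a mean of at least 10. All 6 groups shared 1 model, tests were two-sided, p-values were adjusted by Benjamini-Hochberg, and the threshold was 0.05. Alternatives were pseudocounts of 0.5 and 8, no filter, a mean of at least 50, FPKM + 0.1, rescaling to the same median, the compared groups alone, a replicate block, edgeR 4.0.16, DESeq2 1.42.0, and each sample left out. Leaving out 4 samples with few loci together, and 2 tests of differences between treatments, were added after seeing the data. The fits were tested on simulated data. Samples of a group were not duplicates (chi-square per degree of freedom 5.66 to 119). For implied lengths, the ratio of normalized count to FPKM was scaled in each sample on 722 to 1630 reference loci. Named were the 7 members, the 2 loci most like each by Pearson's r, and of each list up to 4 loci past the threshold in the mean contrast with the highest mean count, or the 2 with the highest mean where fewer than 2 passed.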

Additional observations from a re-analysis of the deposited data

How the results depend on the processing

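Counts of members past the threshold in nuclear over whole cell changed with some settings. The mean contrast (4 loci) gave 2 with FPKM, 3 with no filter and 3 to 4 with 1 sample left out. Control (1) gave 3 with the compared groups alone and 3 with the 4 samples with few loci left out together, a setting chosen after seeing the data that leaves nuclear Scr with 1 sample, assumed to vary like the other groups; leaving out 1 sample gave 1 to 3, the 3 without whole cell miR-92b 3. Scr (2) gave 1 with no filter, FPKM, rescaling or edgeR, 0 with the compared groups alone or without the 4 samples, and 0 to 2 with 1 sample left out. miR-92b (1) gave 0 with the compared groups alone and 0 to 2 with 1 sample left out. The other comparisons gave 0 under each setting run. The replicate block left the mean contrast at 4; the numbers were not treated as pairing the samples, since 1 of 45 pairs of same-numbered samples correlated above 0.1, although 11 of 18 samples correlated best with their own number. By normalized count per kb of the longest coding transcript, ranks became 1 for the Ago2 locus, 2 for Tnrc6a, 4 for Tnrc6b and 5 for Ago1. For the Ago2 locus the reads joined with Ptk2 were divided by the length of the Ago2 transcript alone, so its rank is not that of Ago2. The reads of the joined Tnrc6a locus were likewise divided by the length of a Tnrc6a transcript alone.

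Log2 fold changes of single members changed sign under some settings, none of them past the threshold there, and the cause was not tested. Within a treatment, changes of sign were sought only for the Ago2 locus, Ago3, Tnrc6a and Tnrc6c, and in the comparisons with control for no member. In nuclear over whole cell the changes of sign were, with FPKM, Ago4 in the mean (-0.17) and Ago3 in control (-0.46) and miR-92b (-0.15). Without the 4 samples they were Tnrc6b in the mean (-0.049) and Tnrc6c in miR-92b (-0.077). In nuclear miR-92b over Scr they were Ago1 (-1.10), Ago2 (0.068) and Ago4 (-0.14) with FPKM, Ago2 (0.015) and Ago4 (-0.28) with edgeR, Ago4 (-0.33) with DESeq2, and Ago4 (-0.40), Tnrc6a (-0.058), Tnrc6b (0.29) and Tnrc6c (0.12) without the 4 samples. In whole cell miR-92b over Scr they were Ago4 (0.020), Tnrc6a (0.40) and Tnrc6c (-0.30) with FPKM, Ago2 (-0.0050) and Tnrc6c (-0.015) with rescaling, Ago2 (-0.0090) with edgeR, and Ago2 (-0.11), Ago4 (0.27), Tnrc6a (0.24) and Tnrc6b (0.051) without the 4 samples. With 1 sample left out, nuclear miR-92b over Scr ranged from -0.15 to 0.23 for Ago1, -0.060 to 0.0044 for Ago2, -0.83 to 2.01 for Ago4, -0.054 to 0.060 for Tnrc6a and -0.27 to 0.089 for Tnrc6b. In whole cell samples it ranged from -0.11 to 0.10 for Ago2, -2.30 to 0.27 for Ago4, -0.38 to 0.24 for Tnrc6a, -0.13 to 0.070 for Tnrc6b and -0.25 to 0.28 for Tnrc6c. Tnrc6c in nuclear over whole cell miR-92b ranged from -0.077 to 0.45.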
